A study of Mus musculus with 5 samples.

Results

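Glypicans and syndecans are the main families of heparan sulfate proteoglycans on the cell surface. The 10 mouse genes of both families, Gpc1 to Gpc6 and Sdc1 to Sdc4, were taken by gene name from the 21835 genes of the deposited expression table, and all 10 had a row there. The RNA came from murine lung cancer-associated fibroblasts (CAFs), the fibroblasts of the tumor stroma. Control cells, labelled WT control, carried the empty lentiviral vector (CAF-vec, 2 libraries), and the other cells overexpressed the cluster of miR-200a, miR-200b and miR-429 from a lentivirus (CAF-200, 3 libraries). The lentiviral vector was named pLVX-Neo, and infected cells were kept in G418 for more than 2 weeks. Both groups were thus infected and drug-selected cultures of the same cells, grown in alpha-MEM with serum. The labels give no mouse strain, age or clone, and nothing in them says that the libraries of a group came from separate cultures, so the p values measure only the spread between these libraries, which may be technical.

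A heparan sulfate proteoglycan is a core protein with long sulfated sugar chains. The chains hold growth factors, chemokines and matrix proteins and present them to signaling receptors, and their pattern of sulfate groups sets what they bind. Glypicans are held in the outer leaflet of the membrane by a glycosylphosphatidylinositol (GPI) anchor, whereas syndecans span the membrane and end in a short cytoplasmic tail that binds PDZ-domain proteins. In fibroblasts both families act as co-receptors, for fibroblast growth factors among others, and syndecan-4 works with integrins at focal adhesions.

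Values are CPM, read counts that the authors scaled to the same total in each library. The libraries were first compared with each other, because they did not differ equally. Over the 12175 genes tested, the log2 differences between the 2 CAF-vec libraries had an SD of 0.490, with 499 genes more than 1 log2 unit apart, whereas pairs of CAF-200 libraries had SDs of 0.192 to 0.204 and 36 to 46 such genes. CAF-vec 1 lay farther from the CAF-200 libraries (SD 0.688 to 0.735) than CAF-vec 2 (0.523 to 0.564). Of 12 fibroblast markers, 11 were at 1 CPM or more in every library, and Fap, a protease often used to mark CAFs, was under 0.5 CPM in every library. Thy1, Dcn, Lum and Acta2, which encodes α-smooth muscle actin, were higher in CAF-200, with log2 fold-changes (log2FC) of 1.46, 2.75, 2.82 and 2.63 (adjusted p of 0.0029, 0.000837, 0.000929 and 0.00123, respectively, limma). The other 7 markers tested did not pass, and of these Col1a1, Col1a2 and Pdgfrb had all CAF-200 libraries below both CAF-vec libraries, with log2FC values of -0.91, -0.75 and -0.25, whereas Col3a1 had all of them above (log2FC 1.02, adjusted p = 0.0542, limma). The 12 markers summed to 17338 and 13509 CPM in CAF-vec and to 11467 to 12403 CPM in CAF-200. For CAF-200 against CAF-vec, the paper reports lower mRNA of most CAF markers by RT-qPCR. It also reports less α-smooth muscle actin by antibody staining of the protein. The higher Acta2 RNA here thus runs against that staining result, and why was not tested. All 10 epithelial markers were under 0.5 CPM in every library and summed to 0.0453 to 0.624 CPM. The sums of 7 endothelial markers were 0.167 to 1.06 CPM. The 8 immune markers summed to 3.41 and 7.19 CPM in CAF-vec and to 9.92 to 10.5 CPM in CAF-200, mostly Lyz2 and Cd68, and the 4 mesothelial markers summed to 5.92 and 6.98 CPM in CAF-vec and to 1.11 to 1.62 CPM in CAF-200, mostly Msln. The part of these cell types in the results below was not tested, and in bulk RNA fewer cells of a type and less RNA per cell cannot be told apart.

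Zeb1 and Zeb2, transcription factors known as miR-200 targets, served as a check of the groups. Zeb1 was at 43.5 and 50.7 CPM in CAF-vec and at 37.8, 37.5 and 34.1 CPM in CAF-200, a log2FC of -0.36 that did not pass the threshold (adjusted p = 0.0504, limma). Zeb2 overlapped between the groups, at 46.2 and 29.8 against 31.9, 31.8 and 31.1 CPM (log2FC -0.23, adjusted p = 0.374, limma). The level of the overexpressed miRNAs themselves was not analysed here. The paper reports RT-qPCR of these miRNAs in both groups, and lower Zeb1 mRNA by RT-qPCR in CAF-200.

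Of the 10 genes, 8 were expressed highly enough to be tested, which meant at least 0.5 CPM in at least 2 libraries. A gene is said here to have risen or fallen when its adjusted p from limma was under 0.01. Among the 8, Gpc6 fell and Gpc4 rose, and the other 6 did not pass. Over all 12175 genes tested, 5.57% fell and 4.45% rose, and 2.35% fell with a log2FC below -1, as Gpc6 did. All CAF-200 libraries lay below both CAF-vec libraries for Gpc6 and Gpc1, and above both for Gpc4, Sdc1, Sdc2 and Gpc2, against 37.3% and 24.3% of all genes tested. The median log2FC was 0.22 over the 8 genes and -0.09 over all genes tested.

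**Figure D1:**
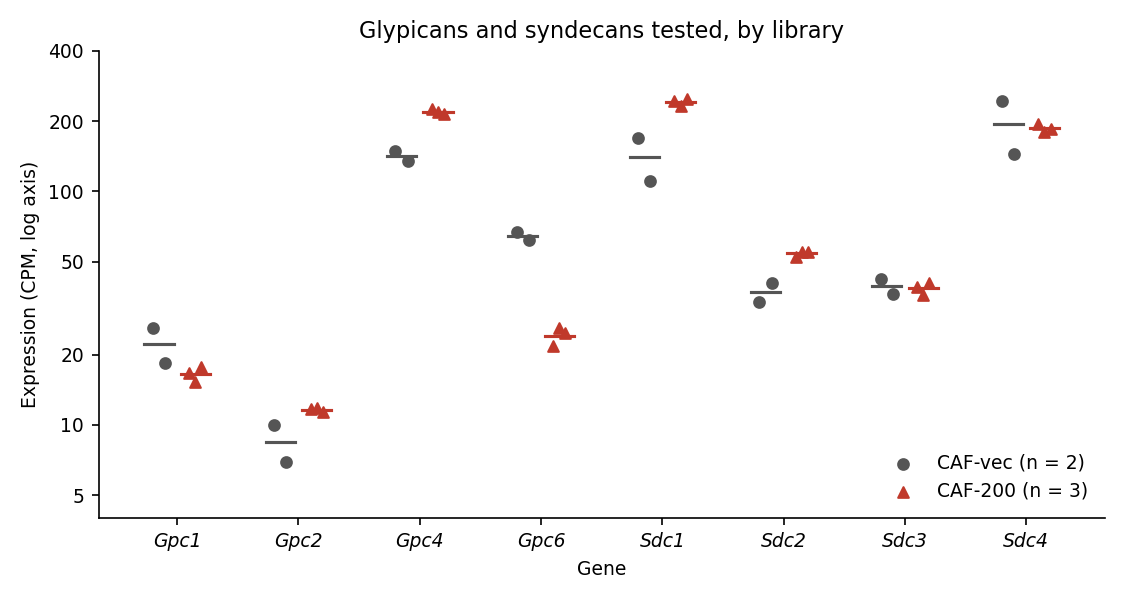
Expression in CPM (log axis) of the 8 glypican and syndecan genes tested. Each point is 1 library, grey circles are CAF-vec (n = 2), red triangles are CAF-200 (n = 3), and lines mark group means. Gpc6 sits at 62.1 and 67.3 CPM in CAF-vec and at 21.7 to 25.9 CPM in CAF-200, whereas the CAF-vec points of Sdc4 lie on either side of all 3 CAF-200 points.

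Gpc6 (ENSMUSG00000058571, chr14:116925315-117976544, plus strand, GRCm38) encodes glypican-6, whose loss in humans causes the skeletal disorder omodysplasia. It was at 67.3 and 62.1 CPM in CAF-vec and at 21.7, 25.9 and 24.7 CPM in CAF-200. The groups were well apart, and no CAF-200 library was above 25.9 CPM. The means were 64.7 ± 3.66 CPM (SD, n = 2) and 24.1 ± 2.14 CPM (SD, n = 3), so the level was 2.68-fold lower in CAF-200. The log2FC on log2(CPM + 0.5) was -1.41 (SE 0.108, 95% CI -1.68 to -1.14, adjusted p = 0.00252, limma), which ranked 134th from the largest fall among 12175 genes. It was -1.35 without CAF-vec 1 and -1.46 without CAF-vec 2. Without any 1 CAF-200 library it was -1.34 to -1.46, but the adjusted p was then 0.0206 to 0.0268 (limma), above 0.01. Gpc6 is also in the study's list of primers for RT-qPCR, so it had been picked by the study itself.

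Gpc4 (ENSMUSG00000031119, chrX:52053021-52165252, minus strand) encodes glypican-4, which, like glypican-6, is known as a factor that astrocytes release to promote synapse formation. It was at 149 and 135 CPM in CAF-vec and at 224, 218 and 215 CPM in CAF-200. Again the groups did not overlap, this time with CAF-200 above. The means were 142 ± 9.84 CPM (SD, n = 2) and 219 ± 4.68 CPM (SD, n = 3), a level 1.54-fold higher in CAF-200. The log2FC was 0.63 (SE 0.0904, 95% CI 0.40 to 0.85, adjusted p = 0.00771, limma). It was 0.70 without CAF-vec 1 and 0.56 without CAF-vec 2. With 1 CAF-200 library left out it stayed between 0.61 and 0.64, with an adjusted p of 0.0523 to 0.0534 (limma), above 0.01. With any 1 CAF-200 library left out, 0 or 1 of the 12175 genes passed at all.

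Gpc1 and Gpc2 were expressed at lower levels. Gpc1 (ENSMUSG00000034220, chr1:92831645-92860779, plus strand), whose product is a co-receptor for FGF2, was at 25.9 and 18.4 CPM in CAF-vec and at 16.7, 15.2 and 17.7 CPM in CAF-200. All CAF-200 libraries were lower, but CAF-vec 2 was within 1 CPM of CAF-200 3, and the log2FC of -0.39 did not pass (SE 0.164, 95% CI -0.80 to 0.01, adjusted p = 0.120, limma). Without CAF-vec 1 it was -0.15, and without CAF-vec 2 it was -0.63. Gpc2 (ENSMUSG00000029510, chr5:138273655-138280005, minus strand), a glypican best known from the developing nervous system, was at 9.96 and 6.97 CPM in CAF-vec and at 11.7, 11.8 and 11.4 CPM in CAF-200. Its log2FC was 0.46 (95% CI 0.06 to 0.85, adjusted p = 0.0776, limma), and it was 0.70 without CAF-vec 1 and 0.21 without CAF-vec 2.

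Some exons of these genes are shared with other annotated genes. Exons of Gpc1 overlap Ankmy1 on the opposite strand, and exons of Gpc2 overlap Gm43720 on the same strand. Both neighbors were nearly silent, with Ankmy1 at no more than 0.0712 CPM and Gm43720 at no more than 0.391 CPM in any library. Exons of Sdc3 overlap Gm12970 and Gm26716 on the opposite strand, which were not analysed here. The libraries were stranded, but whether the counting used strand is not given in the sources used here.

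The remaining glypicans were hardly detected. Gpc3 (ENSMUSG00000055653, chrX:52272426-52613950, minus strand), the gene mutated in the human overgrowth disorder Simpson-Golabi-Behmel syndrome and a marker of liver cancer, was at 0.0467 and 0.0991 CPM in CAF-vec and at 0.0910, 0.133 and 0.231 CPM in CAF-200. The groups overlapped at this very low level. Gpc5 (ENSMUSG00000022112, chr14:115092215-116525179, plus strand) was listed at 0 in all 5 libraries. Neither gene was tested, and since the depth of the libraries is unknown, no detection limit can be given for them.

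Of the glypican genes 4 lie in pairs, each with 1 gene above 0.5 CPM. Gpc3 and Gpc4 are neighbors on the minus strand of the X chromosome, 107.173 kb apart, and Gpc5 and Gpc6 are neighbors on the plus strand of chromosome 14, 400.135 kb apart. No protein-coding gene is annotated between the members of either pair. In each pair 1 gene was expressed and passed the test, Gpc4 upward and Gpc6 downward, and its neighbor was near or at 0 CPM in both groups.

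Syndecan genes were all expressed. Sdc1 (ENSMUSG00000020592, chr12:8771323-8793715, plus strand) encodes syndecan-1, which is best known from epithelia and plasma cells and is induced in the stroma of some carcinomas. It was at 169 and 111 CPM in CAF-vec and at 243, 232 and 248 CPM in CAF-200. The CAF-200 libraries were all higher and close together, whereas the CAF-vec libraries differed by 0.60 log2 units, a difference that 17.5% of genes tested exceeded. The log2FC of 0.81 was the largest positive value among the 8 genes but did not pass the threshold (SE 0.183, 95% CI 0.36 to 1.27, adjusted p = 0.0241, limma). It was 1.11 without CAF-vec 1 and 0.51 without CAF-vec 2. The epithelial markers were near 0 in the same libraries, as given above, with Epcam, Cdh1 and the keratins among them. The immune markers, also given above, summed to more in CAF-200 than in CAF-vec. The part of either cell type in the Sdc1 values was not tested.

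Sdc2 (ENSMUSG00000022261, chr15:32920723-33034935, plus strand) encodes syndecan-2, the syndecan typical of mesenchymal cells. It was at 33.6 and 40.4 CPM in CAF-vec and at 52.6, 55.2 and 55.0 CPM in CAF-200. The groups did not overlap. The log2FC was 0.55 (SE 0.106, 95% CI 0.29 to 0.81, adjusted p = 0.0154, limma), short of the threshold, and was 0.42 without CAF-vec 1 and 0.68 without CAF-vec 2. Sdc2 was the only gene of the 8 with a lower value in CAF-vec 1 than in CAF-vec 2.

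Sdc3 (ENSMUSG00000025743, chr4:130792537-130826319, plus strand) encodes syndecan-3, a receptor for pleiotrophin in the nervous system. It was at 42.2 and 36.4 CPM in CAF-vec and at 39.0, 35.8 and 40.7 CPM in CAF-200. The values were mixed, and the log2FC of -0.03 had a 95% CI of -0.29 to 0.24 (adjusted p = 0.850, limma), so a change of more than 0.29 log2 units in either direction lay outside the interval. Its sign turned with quantile normalization, with centring on the median, and without CAF-vec 1 or CAF-200 2.

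Sdc4 (ENSMUSG00000017009, chr2:164424247-164443887, minus strand) encodes syndecan-4, the syndecan of focal adhesions. It was at 244 and 144 CPM in CAF-vec and at 194, 180 and 184 CPM in CAF-200. The 3 CAF-200 values lay between the CAF-vec values, which differed by 0.76 log2 units, a difference exceeded by 10.0% of genes. The log2FC was -0.01 (SE 0.221, 95% CI -0.56 to 0.53, adjusted p = 0.968, limma). The direction rested on which CAF-vec library was used, being 0.37 without CAF-vec 1 and -0.39 without CAF-vec 2. With 1 CAF-vec library left, the spread within CAF-vec cannot be measured, so no p value is given for these. The sign of Sdc4 also turned with other scalings and without CAF-200 2.

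**Figure D2:**
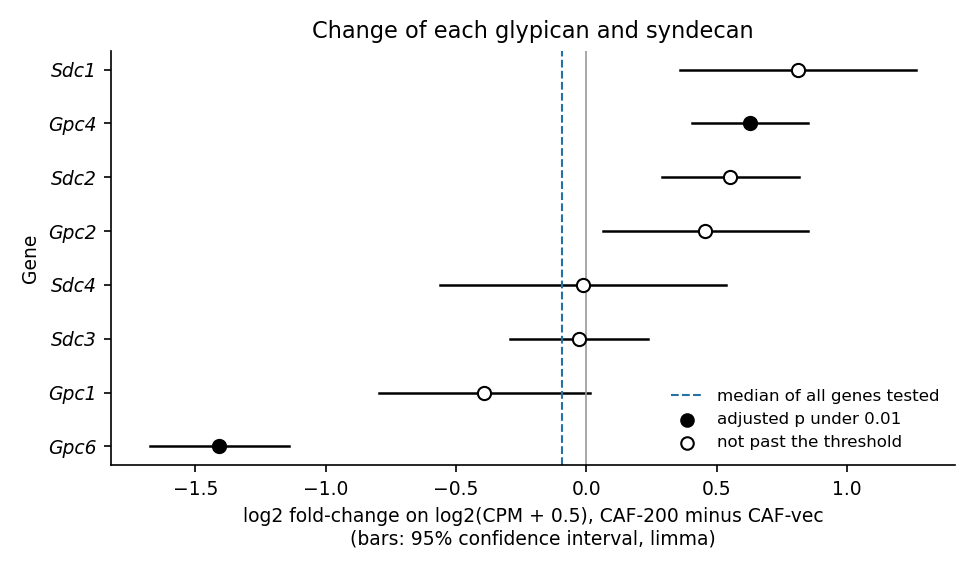
Log2FC of each gene tested, CAF-200 minus CAF-vec, on log2(CPM + 0.5). Points are limma estimates, bars are 95% confidence intervals, filled points passed an adjusted p of 0.01, and the dashed line is the median of all 12175 genes (-0.09). Gpc6 at -1.41 and Gpc4 at 0.63 are filled, and the widest interval belongs to Sdc4.

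To compare levels between genes, CPM were divided by the length of each gene's annotated exons (GENCODE M21), giving CPM per kb. In CAF-vec the order from the top was Sdc4 (76.3 CPM per kb), Gpc4 (53.5), Sdc1 (36.8), Sdc2 (10.5), Gpc6 (10.1), Sdc3 (6.56), Gpc1 (4.29) and Gpc2 (1.98). Sdc2 and Gpc6 could not be ordered there, since their ranges overlapped, and all other neighbors in the order were apart in both libraries. In CAF-200 the order was Gpc4 (82.7 CPM per kb), Sdc4 (73.1), Sdc1 (63.3), Sdc2 (15.4), Sdc3 (6.43), Gpc6 (3.75), Gpc1 (3.21) and Gpc2 (2.72). Here Gpc6 and Gpc1 overlapped. Gpc4 thus stood above Sdc4 in all 3 CAF-200 libraries and below it in both CAF-vec libraries, and Gpc6 went from above Sdc3 to below it.

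Within the glypicans, the make-up of the summed level shifted towards Gpc4. Gpc4 held 75.9% and 77.4% of the glypican sum per kb in CAF-vec and 90.0%, 89.4% and 89.0% in CAF-200. The share of Gpc6 was 14.1% and 14.7% in CAF-vec and 3.60%, 4.38% and 4.21% in CAF-200. These shares restate the values above within each library, so they do not depend on the scaling between libraries. The level of Gpc4 per kb was 5.37 and 5.27 times that of Gpc6 in CAF-vec and 25.0, 20.4 and 21.1 times that of Gpc6 in CAF-200. The glypican sum was 74.0 and 65.8 CPM per kb in CAF-vec and 94.1, 92.1 and 91.2 CPM per kb in CAF-200.

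Within the syndecans, Sdc4 and Sdc1 together made up most of the sum, and the CAF-vec libraries had nearly the same make-up for Sdc1 despite their different levels. Sdc1 held 28.3% and 28.2% of the syndecan sum per kb in CAF-vec and 39.5%, 39.8% and 40.7% in CAF-200. Sdc4 held 61.1% and 54.8% in CAF-vec and 47.2%, 46.1% and 45.3% in CAF-200. The syndecan sum itself was 157 and 103 CPM per kb in CAF-vec and 162, 153 and 160 CPM per kb in CAF-200, so CAF-vec 1 lay among the CAF-200 libraries and CAF-vec 2 below them. With the longest protein-coding transcript as the length instead, a choice made after seeing the data, the ratio of Gpc4 to Gpc6 was 2.91 and 2.86 in CAF-vec and 13.6, 11.1 and 11.5 in CAF-200. The share of Gpc6 in the glypican sum was then 22.5% and 23.5% in CAF-vec and 6.27%, 7.58% and 7.29% in CAF-200. In CAF-vec, Gpc6 then stood above Sdc2, and Gpc4 and Sdc1 overlapped. In CAF-200, Gpc2 stood above Gpc1, Sdc1 and Sdc4 overlapped, and so did Sdc3 and Gpc6.

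**Figure D3:**
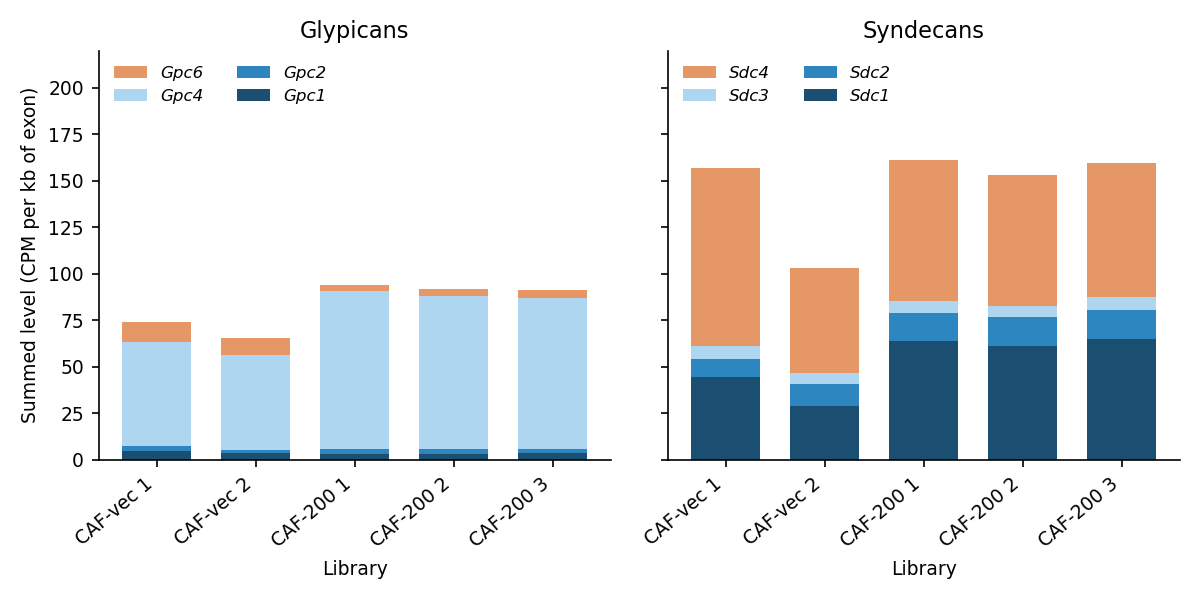
Summed level of glypicans (left) and syndecans (right) in each library, in CPM per kb of exon, with each color a gene. Gpc3 and Gpc5, near or at 0, are left out. The Gpc4 part widens from a mean of 76.6% of the glypican sum in CAF-vec to 89.5% in CAF-200, and the Sdc1 part of the syndecan sum from 28.2% and 28.3% to between 39.5% and 40.7%.

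Because the cells overexpressed this cluster, the 3′-UTRs of the 10 genes were read for their seed matches. A miRNA binds mRNA mainly through its seed, bases 2 to 8 from its 5′ end. The mature sequences, from RefSeq (GRCm38.p6), are shown because their seeds fall into 2 groups, with the seed in capitals:
mmu-miR-200b-3p: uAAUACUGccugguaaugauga
mmu-miR-429-3p: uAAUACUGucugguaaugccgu
mmu-miR-200a-3p: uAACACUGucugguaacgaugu
They lie on the minus strand at chr4:156055685-156055706, chr4:156053916-156053937 and chr4:156054911-156054932, respectively. miR-200b and miR-429 share a seed, which differs from that of miR-200a by a single base.

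The 7-base match to the seed is CAGTATT for miR-200b and miR-429 and CAGTGTT for miR-200a. Each was searched on the mRNA strand of the longest annotated 3′-UTR, and the 2 motifs do not overlap each other in these genes. Only Gpc2 and Sdc2 held a match. The sites are shown with the match in capitals:
Gpc2, miR-200a: ttccacttcatatttCAGTGTTcata
Sdc2, miR-200b and miR-429: acccaaagatgctaaCAGTATTttga
Sdc2, miR-200a: aaaatctaacatctgCAGTGTTctgt
The Gpc2 site is at chr5:138273696-138273721 on the minus strand, with its match starting at base 604 of a 3′-UTR of 655 bases. The Sdc2 sites are at chr15:33033272-33033297 and chr15:33032724-33032749 on the plus strand, with matches at bases 747 and 199 of 2395.

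The genes with these letters were not those that fell. Gpc2 had a log2FC of 0.46 and Sdc2 of 0.55, neither past the threshold, and in both the CAF-200 libraries lay above the CAF-vec libraries. Gpc6, which fell, had no match to either seed in its 3′-UTR of 1458 bases, and 31.5% of tested genes with a 3′-UTR of 0.8 to 1.25 times that length had a match to at least 1. Gpc4, which rose, had none in 500 bases. Over all 12055 tested genes with an annotated 3′-UTR, 15.8% held CAGTATT, 20.8% held CAGTGTT and 30.2% held either. A match describes letters only, and its absence says only that these letters are not in the annotated window. Shorter matches to part of a seed were not searched.

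**Figure D4:**
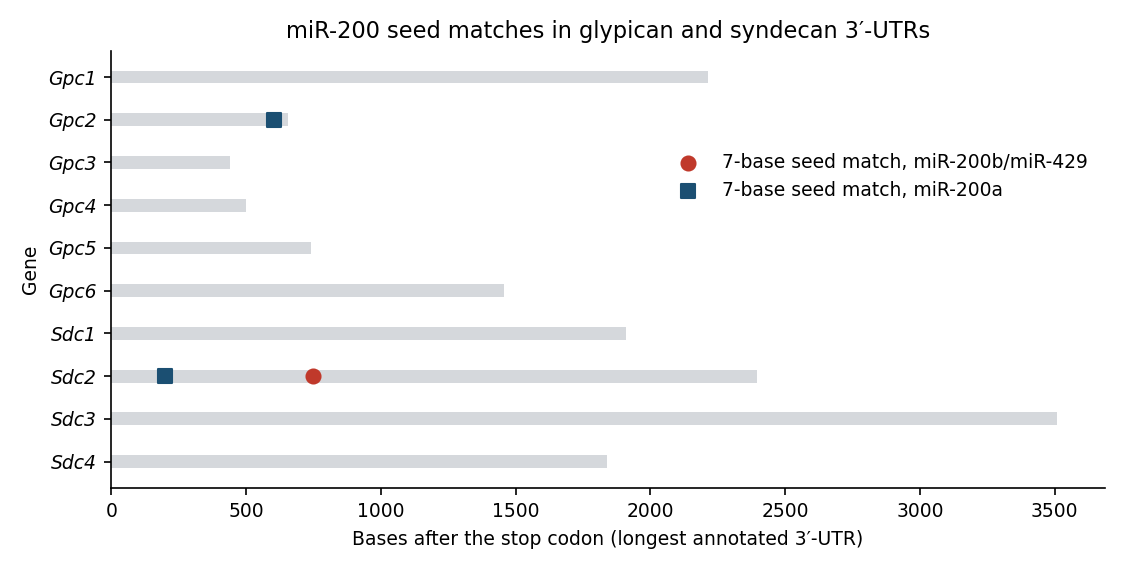
Position of 7-base seed matches in the longest annotated 3′-UTR of each gene, in bases after the stop codon. Grey bars show the length of each 3′-UTR, the red circle a match for miR-200b and miR-429, and blue squares matches for miR-200a. Marks appear in Gpc2 and Sdc2 only.

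The core proteins need enzymes, anchors and partners, so 10 lists of such genes, chosen with earlier results of these data known, were described next. Of their 146 genes 145 were in the table and 114 were tested, of which 12 (10.5%) fell and 7 (6.14%) rose, with a median log2FC of -0.18. Over all genes tested these shares were 5.57% and 4.45%. With 1 CAF-200 library left out no gene of the lists passed. Of the 114 tested, 29 with a negative and 16 with a positive log2FC then had an unadjusted p under 0.05 (limma). The share of all genes at that level was not counted, so these counts cannot be set against a background.

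Chain synthesis starts with a linker on the core protein, to which EXT1 and EXT2 add the repeating sugars. Of 20 synthesis genes tested, 1 rose and 1 fell (median -0.22). Ext1 was at 85.4 and 75.0 CPM in CAF-vec and at 139, 138 and 146 CPM in CAF-200 and rose by 0.81 log2 units (SE 0.0955, adjusted p = 0.00474, limma). Its partner Ext2 was at 127 and 98.4 CPM in CAF-vec and at 86.2, 89.1 and 82.5 CPM in CAF-200, a log2FC of -0.38 that did not pass (adjusted p = 0.0739, limma). The subunits of the same polymerase thus had values of opposite sign, as a description of genes chosen after their values were seen. Pxylp1, the phosphatase that frees the linker for elongation, fell (log2FC -0.73, adjusted p = 0.00753, limma), a call that held in 6 of 14 alternatives.

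Sulfation follows, and the N-deacetylase/N-sulfotransferases act first. Of 6 chain modification genes tested, 1 fell and 1 rose (median 0.09). Ndst2 fell, with 14.9 and 16.3 CPM in CAF-vec and 9.04, 8.13 and 7.69 CPM in CAF-200 (log2FC -0.88, adjusted p = 0.00569, limma). The call for Ndst2 was lost with no filter. Among alternatives that kept all 5 libraries, its adjusted p reached 0.0373 (limma). Ndst1 had a log2FC of -0.50, just short of the threshold (adjusted p = 0.0118, limma). Hs6st2, which adds sulfate at the 6-O position, rose, with 34.9 and 24.8 CPM in CAF-vec and 61.6, 65.1 and 60.2 CPM in CAF-200 (log2FC 1.07, adjusted p = 0.00771, limma). The call for Hs6st2 was lost with no filter. Among alternatives that kept all 5 libraries, its adjusted p reached 0.0241 (limma).

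Outside the cell, SULF1 and SULF2 remove 6-O sulfate again. Of 4 genes for extracellular editing 2 were tested, and 1 rose (median 1.33). Sulf1 rose from 3.81 and 5.29 CPM in CAF-vec to 24.8, 25.3 and 24.4 CPM in CAF-200, a log2FC of 2.34 (SE 0.144, 95% CI 1.99 to 2.70, adjusted p = 0.00145, limma). Sulf2 was at 26.1 and 35.4 CPM in CAF-vec and at 39.6, 37.6 and 36.0 CPM in CAF-200, a log2FC of 0.31 that did not pass (adjusted p = 0.153, limma). Hs6st2, which adds 6-O sulfate, and Sulf1, which removes it, were thus both higher in CAF-200. Hs6st1, the other tested gene that adds it, had a log2FC of 0.006 (adjusted p = 0.970, limma). The heparanase gene Hpse was under 0.5 CPM in every library.

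Of 9 lysosomal breakdown genes tested, 2 fell, beside 5.57% of all genes tested, and 7 had all CAF-200 libraries below both CAF-vec libraries, beside 37.3% of all genes tested (median -0.33). Idua, which encodes an enzyme lost in a mucopolysaccharidosis, fell from 8.51 and 8.54 CPM in CAF-vec to 4.16, 4.28 and 3.65 CPM in CAF-200 (log2FC -0.997, adjusted p = 0.00451, limma).

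Glypicans are cleaved by furin-like convertases, and syndecan ectodomains are shed by metalloproteinases. Of 7 processing and shedding genes tested, 1 fell and 1 rose (median -0.37). Mmp14, a membrane-bound matrix metalloproteinase that cleaves syndecan-1, was at 417 and 453 CPM in CAF-vec and at 227, 222 and 224 CPM in CAF-200 and fell by 0.95 log2 units (SE 0.0909, adjusted p = 0.00318, limma). Mmp16, of the same membrane-bound group, rose from a low level of 2.68 and 2.38 CPM to 6.21, 6.06 and 6.30 CPM (log2FC 1.15, adjusted p = 0.00318, limma).

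Among the partners of the syndecan tail, 1 of 10 tested fell and 1 rose (median -0.24). Prkca, the protein kinase C that syndecan-4 binds and activates, fell from 151 and 131 CPM to 87.3, 88.4 and 88.1 CPM (log2FC -0.67, adjusted p = 0.00754, limma). Tiam1, a Rac activator with a PDZ domain that binds syndecan-1, rose from 3.51 and 4.65 CPM to 9.08, 9.54 and 10.5 CPM (log2FC 1.16, adjusted p = 0.00562, limma). Sdcbp, which encodes syntenin, had a log2FC of -0.37 that did not pass (adjusted p = 0.0305, limma). For the GPI anchor, which the glypicans need, 27 genes were tested and Pigc alone passed, with a log2FC of -0.74 (adjusted p = 0.00562, limma) and a list median of -0.02.

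Ligands held by heparan sulfate moved in both directions. Of 18 tested, 3 fell and 2 rose (median 0.07). Ptn encodes pleiotrophin, a ligand of syndecan-3, and was at 1601 and 1246 CPM in CAF-vec and at 203, 198 and 178 CPM in CAF-200. That is 7.36-fold lower in CAF-200, with a log2FC of -2.87 (SE 0.142, 95% CI -3.22 to -2.52, adjusted p = 0.000929, limma), while Sdc3 had a log2FC of -0.03. The related ligand gene Mdk was at no more than 0.321 CPM in any library and was not tested. Ptn was followed up by the study itself, so its value here is no independent finding.

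Fibroblast growth factors, the classic ligands of heparan sulfate, included genes of both directions. Fgf7 rose from 62.6 and 91.5 CPM to 165, 185 and 189 CPM (log2FC 1.24, adjusted p = 0.00753, limma), and Fgf10 fell from 21.6 and 23.1 CPM to 11.2, 11.6 and 11.9 CPM (log2FC -0.92, adjusted p = 0.00331, limma). Both act on the same epithelial splice form of FGFR2. Fgf18 rose from 0.325 and 0.299 CPM to 2.71, 1.66 and 2.64 CPM (log2FC 1.78, adjusted p = 0.00506, limma), from a level where a pseudocount of 0.5 reduces the change. Tgfb2 fell from 23.9 and 22.5 CPM to 8.70, 9.45 and 7.89 CPM (log2FC -1.37, adjusted p = 0.00254, limma).

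Of 10 receptor genes tested, Fgfr2 alone passed (median -0.29). It fell from 35.2 and 36.6 CPM in CAF-vec to 16.6, 15.8 and 16.7 CPM in CAF-200 (log2FC -1.11, SE 0.0854, adjusted p = 0.00252, limma). Fgfr1 was at 179.7 and 139 CPM in CAF-vec and at 132, 123 and 129 CPM in CAF-200, a log2FC of -0.30 that did not pass (adjusted p = 0.124, limma).

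Among heparan sulfate proteoglycans outside both families, 5 were tested, and 4 of them had all CAF-200 libraries below both CAF-vec libraries, against 37.3% of all genes tested (median -0.27). Agrn, which encodes agrin of basement membranes, fell from 36.1 and 33.4 CPM to 21.9, 23.6 and 20.5 CPM (log2FC -0.65, adjusted p = 0.00891, limma). This call was lost in 9 of 14 alternatives, among them quantile normalization, centring on the median and no filter, with adjusted p of 0.0123, 0.0121 and 0.0139 (limma). The perlecan gene Hspg2 was at 173 and 183 CPM in CAF-vec and at 169, 136 and 149 CPM in CAF-200 (log2FC -0.24, adjusted p = 0.169, limma).

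**Figure D5:**
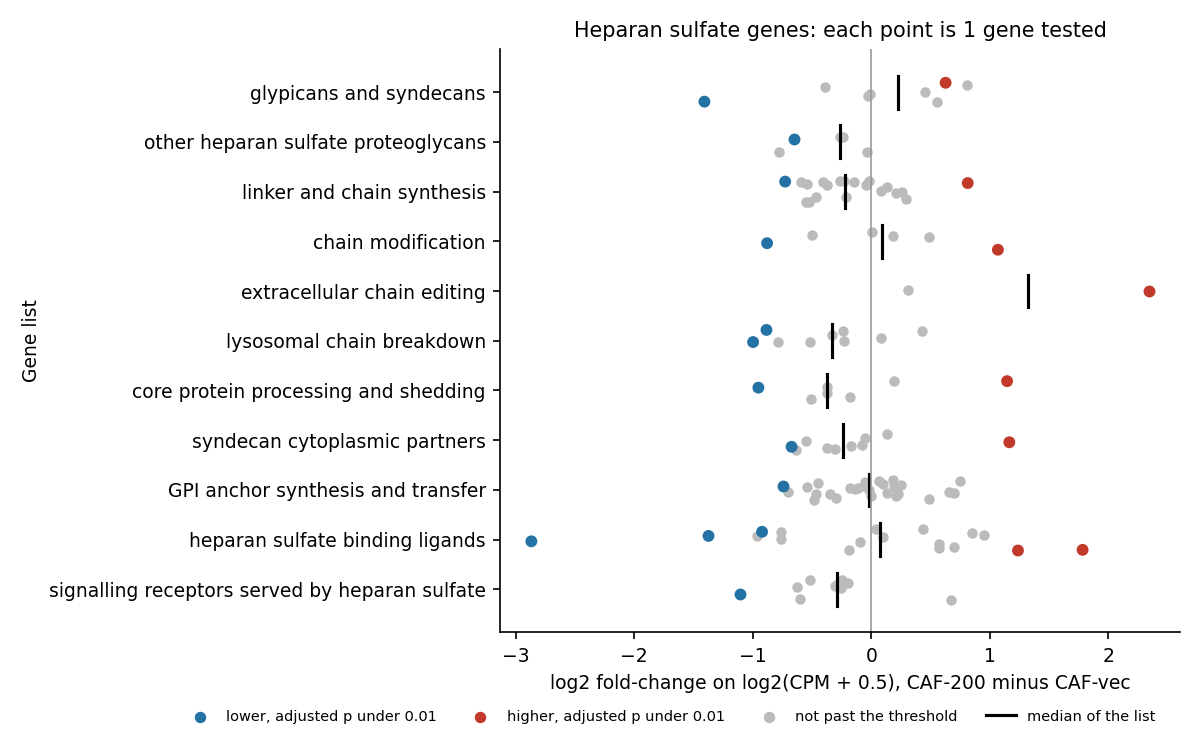
Log2 fold-change, CAF-200 minus CAF-vec, of each gene tested in the glypican and syndecan families and in the 10 lists around heparan sulfate. Each point is 1 gene, blue fell and red rose at an adjusted p under 0.01, grey did not pass, and black lines are list medians. On this scale Ptn at -2.87 and Sulf1 at 2.34 are the outermost points.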

How the data were processed

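Stranded mRNA libraries (TruSeq, NovaSeq) of CAF-vec (n = 2) and CAF-200 (n = 3) were sequenced. The submitters' processing notes name FastQC, cutadapt, Trimmomatic, STAR, RSEM and edgeR and the build GRCm38 (mm10), and their versions are not given in the sources used here. The authors deposited 1 table of CPM values, named for TMM, whose columns summed to 999956 to 1000111. Whole reads could not be recovered from it, so depth is unknown and its effect on precision cannot be given. Values near 0 may differ in how they were made, since 816 to 1108 genes per CAF-200 library and none per CAF-vec library had values above 0 but under 0.005 CPM. The labels and the paper's methods differ on the RNA kit and the vector, and the labels were followed; the methods speak of triplicates, and 2 CAF-vec libraries were analysed here.

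Log2(CPM + 0.5) was fitted, for genes that reached 0.5 CPM in 2 or more libraries, with limma 3.58.1 in R 4.3.3 (lmFit, eBayes with a variance trend) over all 5 libraries, with Benjamini-Hochberg adjustment over 12175 genes and a threshold of 0.01. Fold values are ratios of group mean CPM. Gene names, lengths and 3′-UTRs came from GENCODE M21 (GRCm38), which named 21795 of 21835 genes, and miRNA sequences from RefSeq. All 10 members are named, and of each list the genes past the threshold, at most 8 by size, with Ptn, Mdk, Sulf1, Sulf2, Ext1, Ndst1, Sdcbp, Zeb1 and Zeb2 in any case. 1 listed gene past the threshold is not reported here by name. Any other gene named was picked with its values in view. Members and lists were chosen with earlier results of these data known. Alternatives were pseudocounts of 0.1 and 1, other filters, quantile normalization, centring on each library's median, no variance trend, sample weights, other thresholds, a replicate block and leaving out each library. Tables and plots used Python 3.11.15, pandas 2.3.3, numpy 2.4.6 and matplotlib 3.10.9.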

Additional observations from a re-analysis of the deposited data

How the results depend on the processing

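Gpc6 kept its direction under all 14 alternatives and passed 0.01 in 10, and Gpc4 kept its direction in 14 and passed in 9. Of the members, 1 fell and 1 rose; with sample weights the counts were 0 and 0 (1 and 4 at an unadjusted p under 0.05, limma; adjusted p of Gpc6 0.0106 and of Gpc4 0.0263). With quantile normalization 2 rose (Gpc4 and Sdc1), at an adjusted p under 0.05 3 rose (Gpc4, Sdc1 and Sdc2), and with a log2FC beyond 1 as well 0 rose. Leaving out 1 library gave 0 to 3 falling members and 0 to 5 rising. Without a CAF-vec library the remaining 1 was assumed to vary like CAF-200, and 3501 or 6073 genes passed in all. Without a CAF-200 library 0 or 1 gene passed, and 1 member lower and 3 higher had an unadjusted p under 0.05 (limma). The shares of all genes at an unadjusted p or an adjusted p under 0.05 were not counted. Counts at 0.05 in this section, also of the pathway genes, therefore have no background beside them. The shares of 5.57% and 4.45% given above belong to 0.01 only. The number of pathway genes that fell was 12, and it was 3 with sample weights, 29 at 0.05, 3 with a log2FC beyond 1, and 0 to 47 with a library left out. The number that rose was 7, and it was 4 with no filter, 11 with quantile normalization, 1 with sample weights, 17 at 0.05, and 0 to 23 with a library left out. The value of Sdc3 turned positive with quantile normalization (0.0649) and centring (0.0680) and ranged from -0.133 to 0.0759 with a library left out; that of Sdc4 did so at 0.0878 and 0.0834, ranging from -0.391 to 0.365, and that of Zeb2 ranged from -0.542 to 0.0828. The cause was not tested. Genes past the threshold numbered 1220, against 723 with no filter, 150 with sample weights and 171 with the replicate block. Of them 55.6% were lower, against 43.0% with centring and 46.0% with quantile normalization, and these scalings moved the median of all genes by under 0.1. The replicate numbers 1 and 2 pair libraries by number only (correlations of deviations 0.249 and 0.134, 2 pairs). With the replicate block, 1 member fell (Gpc6, log2FC -1.43, adjusted p = 0.00986, limma) and 0 rose (3 at an unadjusted p under 0.05; Gpc4 0.64, adjusted p = 0.0593), and 1 pathway gene fell and 1 rose. An edgeR test on whole reads was not run, since whole reads could not be recovered.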
